A study of Mus musculus with 46 samples.

Results

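Cxcl1, Cxcl2, Cxcl9, Cxcl10, Cxcl13, Cxcl16 and Cxcr4 are 6 CXC chemokine ligands and 1 CXC chemokine receptor of the mouse. They were taken as a fixed set of 7 genes out of the 21231 genes listed in any of the 3 deposited expression tables, chosen by gene family, with no threshold on a measured value. The choice was made with earlier results of these data known. It leaves out 9 other CXC ligands and 9 other CXC receptors and scavengers. All 7 were listed and tested in the table of sorted brain myeloid cells after lipopolysaccharide (LPS, a cell wall component of Gram-negative bacteria). In the 2 tables without LPS, 6 were listed for GLOBAL repopulation and 1, Cxcl16, for tissue of the subventricular zone (SVZ).

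The mice were C57BL/6 wild type animals of 2 month of age at the start of treatment. PLX3397, an inhibitor of the kinases CSF1R, KIT and FLT3, was fed at 600 ppm in chow to remove microglia. White matter (WM) repopulating cells came from mice fed the inhibitor for 14 day and then left for 28 day, and control microglia came from vehicle mice. Both received LPS at 0.33 mg per kg into the peritoneum 6 hr or 24 hr before collection, or no LPS (0 hr), and CD11b+CD45int cells were sorted from whole brain hemispheres. There were 3, 5 and 4 libraries of control microglia at 0, 6 and 24 hr, and 4 libraries of WM repopulating cells at each time. GLOBAL repopulation followed a 7 day exposure and a 28 day recovery, without LPS (4 control and 3 repopulation libraries). SVZ libraries (5 per group) came from control mice, from mice at the end of 14 day of PLX3397 and from mice after 5 day of recovery, again without LPS. The sort takes cells by surface markers and from all regions of a hemisphere, so other CD11b+CD45int cells can be included, and the inhibitor acts on other KIT or FLT3 dependent cells too.

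CXC chemokines are small secreted proteins that steer leukocytes through G protein coupled receptors. CXCL1 and CXCL2 bind CXCR2 and attract neutrophils, and their genes are classical targets of NF-kB downstream of the LPS receptor TLR4. CXCL9 and CXCL10 are interferon-induced ligands of CXCR3 and attract T and NK cells. CXCL13 attracts B cells through CXCR5. CXCL16 is made as a transmembrane protein that binds CXCR6 and can be shed by ADAM10 and ADAM17. CXCR4 is the receptor of CXCL12 and holds and guides haematopoietic and myeloid cells. In the brain, microglia are a known source of several of these ligands during inflammation.

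Of the ligand genes, 5 lie on mouse chromosome 5 (GRCm38, GENCODE coordinates). Cxcl1 (chr5:90891241-90893115, plus strand) and Cxcl2 (chr5:90903871-90905938, plus strand) were 10.8 kb apart, and Cxcl9 (chr5:92321347-92328079, minus strand) and Cxcl10 (chr5:92346638-92348889, minus strand) were 18.6 kb apart. Cxcl13 was at chr5:95956951-95961068 on the plus strand, Cxcl16 at chr11:70453983-70459984 on the minus strand and Cxcr4 at chr1:128588199-128592293 on the minus strand. The 250 bases upstream of the RefSeq start are printed for the ligand genes with an LPS response. For Cxcl1, Cxcl2 and Cxcl13 that start is not the GENCODE start given above. In these bases 3 kinds of short motif known from LPS and interferon signalling can be looked for. The motifs were the kB consensus bound by NF-kB, the interferon stimulated response element core (2 copies of GAAA with any 2 bases between them) and the gamma activated sequence TTCNNNGAA, each on both strands. Sequences are from RefSeq on GRCm38.p6, 5′ to 3′ on the strand of the gene, with matches in capitals. The windows are chr5:90890995-90891244 (Cxcl1), chr5:90903649-90903898 (Cxcl2), chr5:92328080-92328329 (Cxcl9), chr5:92348890-92349139 (Cxcl10) and chr5:95956689-95956938 (Cxcl13).
Cxcl1: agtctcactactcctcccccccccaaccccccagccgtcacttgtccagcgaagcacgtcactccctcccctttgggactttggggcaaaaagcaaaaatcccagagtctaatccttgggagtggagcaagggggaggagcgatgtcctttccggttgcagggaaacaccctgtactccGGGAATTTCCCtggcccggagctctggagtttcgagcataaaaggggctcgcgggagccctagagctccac
Cxcl2: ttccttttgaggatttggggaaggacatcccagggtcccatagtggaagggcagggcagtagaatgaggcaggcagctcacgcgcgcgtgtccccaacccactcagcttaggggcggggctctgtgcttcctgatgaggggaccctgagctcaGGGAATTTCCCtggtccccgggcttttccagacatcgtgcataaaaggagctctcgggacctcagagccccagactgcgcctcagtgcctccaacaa
Cxcl9: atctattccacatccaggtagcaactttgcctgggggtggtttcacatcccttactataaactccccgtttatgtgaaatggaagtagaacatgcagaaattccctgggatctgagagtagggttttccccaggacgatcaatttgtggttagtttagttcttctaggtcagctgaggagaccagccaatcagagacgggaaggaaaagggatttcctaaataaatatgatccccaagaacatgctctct
Cxcl10: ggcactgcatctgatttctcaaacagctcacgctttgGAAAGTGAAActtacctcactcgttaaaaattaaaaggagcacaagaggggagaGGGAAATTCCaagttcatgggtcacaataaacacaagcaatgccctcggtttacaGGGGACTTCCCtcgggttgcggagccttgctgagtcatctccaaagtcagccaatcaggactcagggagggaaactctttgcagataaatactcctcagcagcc
Cxcl13: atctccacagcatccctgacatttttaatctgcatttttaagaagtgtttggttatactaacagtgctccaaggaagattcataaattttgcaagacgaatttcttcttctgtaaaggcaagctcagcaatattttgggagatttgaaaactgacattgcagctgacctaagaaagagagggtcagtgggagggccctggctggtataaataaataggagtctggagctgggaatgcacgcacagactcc

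Cxcl1 and Cxcl2 carried the same 14 bases, GGGAATTTCCCTGG, which hold a kB match read on both strands with overlap. It began 71 bases before the start in Cxcl1 and 97 bases before the start in Cxcl2. Cxcl10 carried the response element core GAAAGTGAAA at 213 bases and 2 separate kB places, GGGAAATTCC at 159 bases and GGGGACTTCC at 104 bases, the second of which overlaps a further match. No match of these letters fell in the windows of Cxcl9, Cxcl13 or Cxcr4, and none of the 6 windows held the gamma activated sequence. Among 32851 windows of the same length, 7.25% held a kB match, 2.98% the response element core and 7.02% the gamma activated sequence. A match describes letters, not a bound site. Cxcl16 had no entry in the RefSeq table.

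The LPS libraries had about 5237753 to 10379752 reads counted in genes, with a median of 7064666, as recovered from the steps between their lowest values. Levels are in FPKM, reads scaled to the length of the gene and the reads of the library, so genes can be compared within a library. For Cxcl1, 1 read was worth 0.101 to 0.200 FPKM and the gene had 0 to 67 reads, and for Cxcr4 it was worth 0.0531 to 0.105 FPKM with 2 to 24 reads. Both genes were therefore near the limit of this depth, for counting error alone. The summed level of 8 microglia markers, all listed, was 16695 to 21524 FPKM at 0 hr, 5596 to 7958 at 6 hr and 8648 to 11945 at 24 hr over both origins. The 7 monocyte markers, all listed, summed to 104 to 403 at 0 hr, 1195 to 3337 at 6 hr and 141 to 675 at 24 hr. The 9 neutrophil markers, all listed, summed to 1837 to 10914 at 0 hr, 436 to 10259 at 6 hr and 3192 to 15338 at 24 hr. Ly6g, 1 of these 9, had a median of 0 at 6 hr in both origins, and the others are not given singly. Neither the sum nor Ly6g alone gives the share of neutrophils. The monocyte sum was highest at 6 hr in both origins, while the medians of the microglia sum and of the neutrophil sum were lowest then. At 6 hr 1 library of WM repopulating cells, replicate 1, had a neutrophil sum of 10259 against 436 to 828 in the other 3, and the highest monocyte sum (3337). The 3 listed B cell markers in control microglia summed to 46.6 to 56.7 at 0 hr, 4.999 to 13.3 at 6 hr and 26.8 to 35.5 at 24 hr. The 4 choroid plexus markers in WM repopulating cells summed to 279.8 to 715, 157 to 599 and 10.54 to 32.0, and at 6 hr replicate 1 of control microglia was at 1356 against 95.4 to 342 in the other 4. The part of these markers in the results below was not tested. In bulk samples fewer cells of a type and less RNA per cell cannot be told apart.

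One library, replicate 2 of control microglia at 6 hr, lay outside the range of the other 4 libraries of its group in 5 members, above it in 4 and below it in 1. Its Cxcl10 level was 10.4 times the median of the other 4 libraries of its group, Cxcl1 was 7.61 times, Cxcl16 4.997 times and Cxcl2 3.80 times, while Cxcl13 was 0.0903 times that median and Cxcl9 and Cxcr4 lay within the range of the others. Among other genes, Il1b, which encodes the cytokine interleukin 1 beta, was at 1238 FPKM there against 87.5 to 131 in the other 4. Its median correlation with its group over all genes was 0.939, against 0.965 to 0.974 for the others. By that measure replicate 4 of control microglia at 24 hr also stood apart, at 0.949 against 0.981 to 0.984 in its group. The neutrophil marker sum of replicate 2 at 6 hr was 5781 (others 904 to 4197) and its monocyte sum 1195 (others 1471 to 2388). Results that rest on it are given with and without it, an alternative chosen after the data were seen.

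Before LPS, Cxcl16 was the one member whose libraries lay clear of all the others in both origins. In control microglia at 0 hr the median level was 42.4 FPKM for Cxcl16, 9.34 for Cxcl2, 6.65 for Cxcl10, 0.850 for Cxcl9, 0.601 for Cxcr4, 0.125 for Cxcl13 and 0 for Cxcl1. In WM repopulating cells at 0 hr the medians were 71.9 for Cxcl16, 17.8 for Cxcl10, 7.67 for Cxcl2, 2.77 for Cxcl13, 0.866 for Cxcl9, 0.561 for Cxcr4 and 0.4932 for Cxcl1. Cxcl16 was above every other member in each of these 7 libraries, and Cxcl9 was above Cxcr4 without overlap in control microglia. The ranges of Cxcl2 and Cxcl10 overlapped in both origins, as did those of all 4 lowest genes in WM repopulating cells. In control microglia Cxcl13, at 0 to 6.91 FPKM, overlapped each member other than Cxcl16. At 6 hr Cxcl10 had the highest median in both origins, 282 FPKM in control and 265 in WM repopulating cells, but its range overlapped that of Cxcl16. At 24 hr Cxcl16 was again highest, at 83.4 and 124, overlapping Cxcl2 in control microglia and above it in WM repopulating cells.

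**Figure D1:**
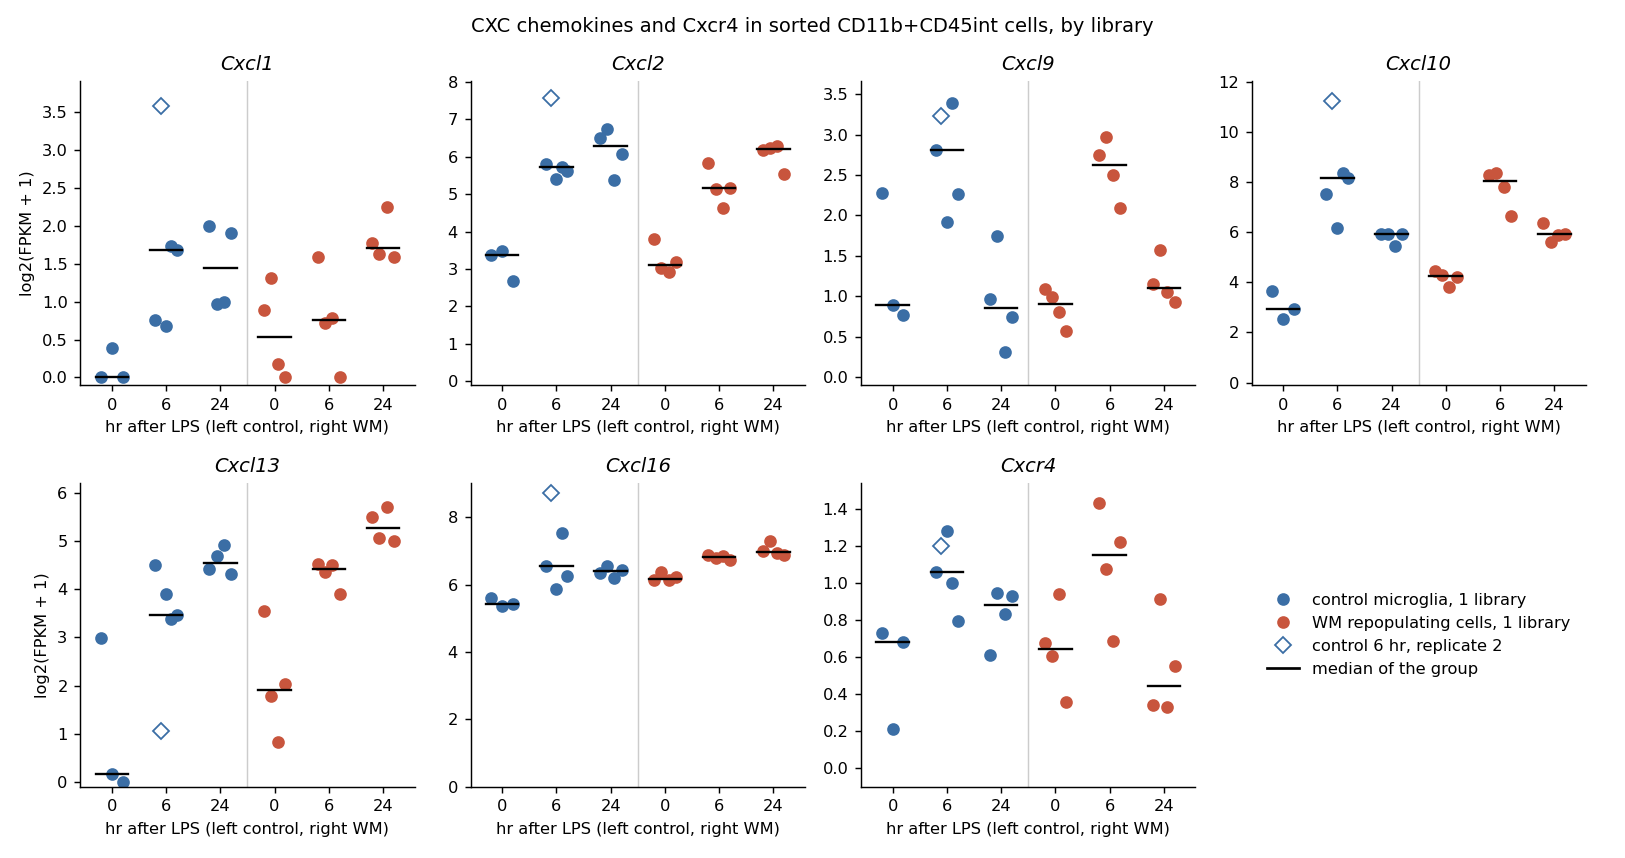
Level of each member as log2(FPKM + 1) against hours after LPS in control microglia (blue, 3, 5 and 4 libraries) and WM repopulating cells (red, 4 libraries at each time). Each point is 1 library, the open diamond is replicate 2 of control microglia at 6 hr and the line is the group median. Cxcl9 and Cxcl10 are highest at 6 hr in both origins, and the Cxcl13 medians are highest at 24 hr.

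In control microglia, all 7 genes rose by 6 hr (adjusted p under 0.05, limma), where 21.4% of the 12684 genes tested rose. Because the set was chosen with earlier results of these data known, such counts are a description and no independent test of the family. Fitted on the 0 and 6 hr groups alone, Cxcl1 (adjusted p = 0.0517), Cxcl13 (0.0564) and Cxcr4 (0.0780) did not pass and the other members did. By 24 hr, 3 of 7 were above 0 hr (Cxcl2, Cxcl10 and Cxcl13) against 12.1% of genes. Between 6 and 24 hr, 2 of 7 fell (Cxcl9 and Cxcl10), against 13.3%. In WM repopulating cells, 4 of 7 rose by 6 hr (Cxcl2, Cxcl9, Cxcl10 and Cxcl13) against 19.3%, 3 of 7 were above 0 hr at 24 hr (Cxcl2, Cxcl10 and Cxcl13) against 10.5%, and 3 of 7 fell from 6 to 24 hr (Cxcl9, Cxcl10 and Cxcr4) against 7.50%. With any 1 library of the WM 6 or 24 hr group left out, the last count was 1 or 2, where 1400 to 1838 genes were called in either direction. The 6 hr and 24 hr comparisons of an origin share their 0 hr libraries. Counted by libraries that do not overlap, 5 members were higher at 6 hr and 5 at 24 hr in each origin, where 19.5% of genes in control and 19.5% in WM repopulating cells were higher at 6 hr, and 15.8% and 13.2% at 24 hr. Without replicate 2 of control microglia at 6 hr, Cxcr4 lost its 6 hr call in control microglia (adjusted p = 0.0662). In that fit Cxcl16 newly passed at 6 hr in WM repopulating cells, and Cxcl1 and Cxcl16 at 24 hr in both origins. The shares above belong to the fit with all libraries. All groups share 1 estimate of the spread in this test, so a library of 1 group enters the p-values of the others.

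**Figure D2:**
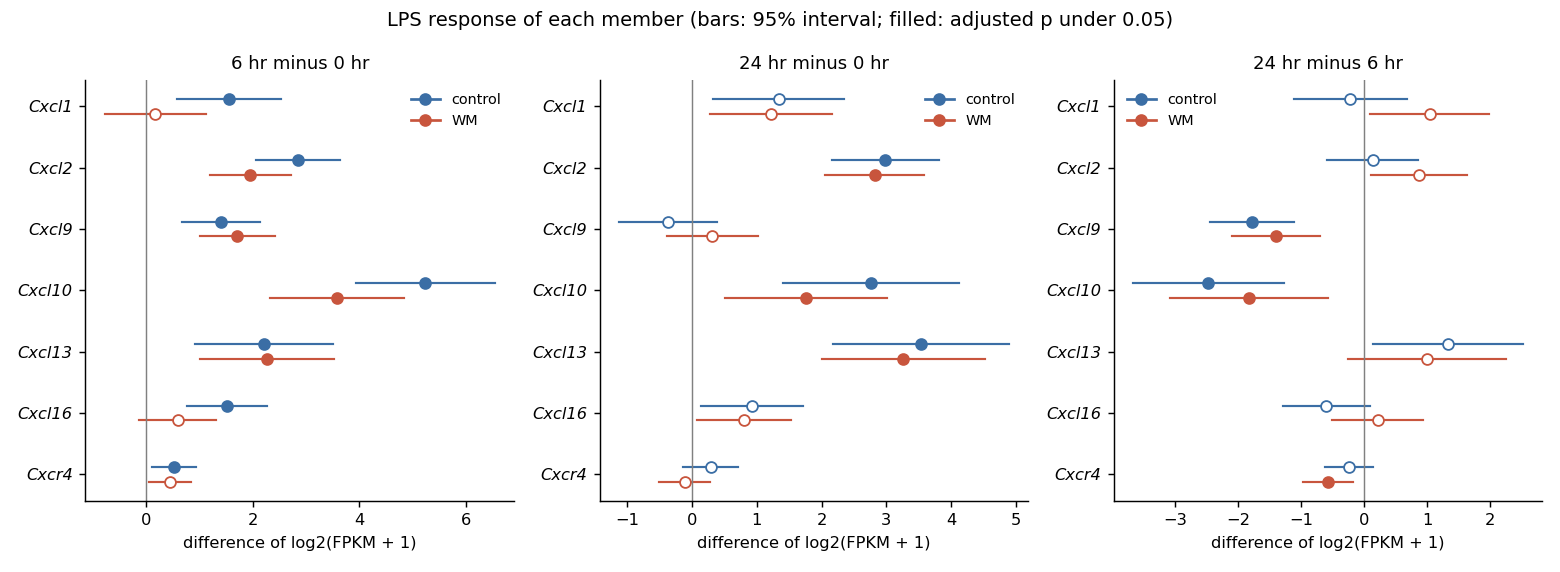
Difference of log2(FPKM + 1) for each member between 6 and 0 hr, 24 and 0 hr, and 24 and 6 hr after LPS, in control microglia (blue) and WM repopulating cells (red). Points are limma estimates, bars are 95% intervals and filled points have an adjusted p under 0.05. Cxcl10 has the largest estimate at 6 hr in both origins, 5.24 in control and 3.58 in WM repopulating cells.

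On the log2(FPKM + 1) scale Cxcl10 had the largest 6 hr difference of the set, and it fell back by 24 hr in both origins. In control microglia it was at 11.6, 4.75 and 6.65 FPKM at 0 hr, at 180.5, 2412, 69.7, 326 and 282 at 6 hr and at 60.2, 60.1, 42.2 and 59.8 at 24 hr. The 3 groups did not overlap, and the lowest 6 hr library was above each library of the other times. The median at 6 hr was 42.3 times that at 0 hr (log2 difference 5.24 ± 0.63 SE, adjusted p = 4.24e-07), and at 24 hr it was 9.02 times (2.77 ± 0.66, adjusted p = 0.00371). From 6 to 24 hr the level fell by 2.47 on the log2 scale (adjusted p = 0.00231), and by 1.73 without replicate 2 at 6 hr (adjusted p = 0.00148). Without replicate 2 at 6 hr, the 6 hr libraries averaged 214 ± 114 FPKM (SD, n = 4) and the 6 hr difference was 4.50 (adjusted p = 8.29e-09).

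In WM repopulating cells Cxcl10 was at 20.8, 18.4, 12.95 and 17.3 FPKM at 0 hr, at 310.3, 330.0, 219 and 97.5 at 6 hr and at 80.2, 48.0, 58.7 and 59.0 at 24 hr. Again the groups did not overlap. The median rose 14.9 times by 6 hr (log2 difference 3.58 ± 0.61, adjusted p = 5.26e-05) and was 3.30 times the 0 hr median at 24 hr (1.76 ± 0.61, adjusted p = 0.0442). The fall from 6 to 24 hr was -1.82 (adjusted p = 0.0432). Both calls depended on the setting. With 1 WM library left out, the adjusted p reached 0.103 for the 24 hr difference and 0.124 for the fall, and with no expression limit it was 0.0571 and 0.0556. Without replicate 2 of control microglia at 6 hr it was 0.00153 and 0.00136, and fitted on only the groups compared 3.64e-05 and 0.00290. Art3, on the opposite strand, shares 133 exonic bases with Cxcl10 and stayed at 0.164 to 5.29 FPKM over all 24 libraries.

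Cxcl9, the neighbour of Cxcl10 with the same receptor, was a low transcript that was called higher at 6 hr and not at 24 hr. In control microglia it was at 3.84, 0.850 and 0.697 FPKM at 0 hr, at 5.99, 8.36, 2.77, 9.45 and 3.81 at 6 hr and at 0.944, 2.36, 0.243 and 0.677 at 24 hr. One 0 hr library overlapped the 6 hr range, and all 24 hr libraries lay below it. The 6 hr difference was 1.41 ± 0.35 (adjusted p = 0.00226), a median ratio of 7.05, and the fall to 24 hr was -1.78 ± 0.32 (adjusted p = 0.000230). At 24 hr the difference from 0 hr was -0.37 (adjusted p = 0.522).

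WM repopulating cells had Cxcl9 at 1.12, 0.981, 0.752 and 0.486 FPKM at 0 hr, at 5.69, 6.80, 4.66 and 3.27 at 6 hr and at 1.23, 1.98, 1.07 and 0.911 at 24 hr. The 6 hr libraries were above all others. The rise was 5.97 times in the median (log2 difference 1.71 ± 0.34, adjusted p = 0.000303) and the fall to 24 hr was -1.40 ± 0.34 (adjusted p = 0.00637), with 0.32 between 24 and 0 hr (adjusted p = 0.566). Cxcl9 and Cxcl10 were the members that fell from 6 to 24 hr in both origins, and for both genes every 24 hr library was below every 6 hr library of its origin, as for 9.90% of genes in control and 10.8% in WM repopulating cells.

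Cxcl2, one of the kB bearing pair of neutrophil attractants, was raised at 6 hr and still raised at 24 hr. In control microglia it was at 9.34, 10.2 and 5.47 FPKM at 0 hr, at 55.2, 191, 41.6, 52.4 and 48.1 at 6 hr and at 89.8, 105, 40.6 and 65.8 at 24 hr. All treated libraries lay above the 0 hr libraries, and the 6 and 24 hr libraries overlapped. The median was 5.61 times that of 0 hr at 6 hr (log2 difference 2.85 ± 0.38, adjusted p = 1.94e-06) and 8.33 times at 24 hr (2.99 ± 0.40, adjusted p = 1.00e-05). The 6 hr libraries other than replicate 2 averaged 49.3 ± 5.93 FPKM (SD, n = 4).

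Cxcl2 in WM repopulating cells was at 13.02, 7.16, 6.64 and 8.18 FPKM at 0 hr, at 56.5, 34.5, 23.95 and 34.8 at 6 hr and at 71.5, 73.7, 77.7 and 45.9 at 24 hr. Again no treated library reached down to the 0 hr range. The median ratio was 4.52 at 6 hr (log2 difference 1.96 ± 0.37, adjusted p = 0.000166) and 9.47 at 24 hr (2.82 ± 0.37, adjusted p = 8.14e-06). The step from 6 to 24 hr was 0.86 with an adjusted p of 0.114, or 0.0270 without replicate 2 of control microglia at 6 hr.

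Cxcl1 shares the kB letters of Cxcl2 but stayed at a much lower level in these cells. In control microglia 2 libraries at 0 hr were at 0 and the other was at 0.304 FPKM, the 6 hr libraries were at 0.688, 10.99, 0.602, 2.34 and 2.20, and the 24 hr libraries at 2.996, 0.949, 0.985 and 2.74. No treated library reached down to the 0 hr values. The 6 hr difference was 1.56 ± 0.47 (adjusted p = 0.00988), or 1.08 without replicate 2 (adjusted p = 0.0222), and the 24 hr difference was 1.34 (adjusted p = 0.0555), which passed without that library (adjusted p = 0.0103). With a pseudocount of 0.1 in place of 1 the 24 hr difference was 3.48 (adjusted p = 0.0143).

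In WM repopulating cells Cxcl1 was at 0.852, 1.49, 0.135 and 0 FPKM at 0 hr, at 2.01, 0.646, 0.722 and 0 at 6 hr and at 2.42, 2.10, 3.75 and 2.02 at 24 hr. The 0 and 6 hr libraries overlapped and the 24 hr libraries were above both. The 6 hr difference was 0.18 ± 0.46 (adjusted p = 0.792) and the 24 hr difference 1.21 (adjusted p = 0.0655, or 0.0128 without replicate 2 of control microglia at 6 hr).

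Cxcl13, the B cell attractant, had its highest medians at 24 hr in both origins. In control microglia it was at 6.91, 0.125 and 0 FPKM at 0 hr, at 21.8, 1.08, 13.9, 9.48 and 10.02 at 6 hr and at 20.3, 24.9, 29.4 and 18.9 at 24 hr. The 0 hr values rest on 54, 1 and 0 reads, so the ratio of means is given here in place of that of medians, at 4.79 for 6 hr and 9.95 for 24 hr. The low 6 hr library is replicate 2, the one in which Cxcl10 was highest, and the other 4 averaged 13.8 ± 5.67 FPKM (SD). The 6 hr difference was 2.21 ± 0.63 (adjusted p = 0.00642), and 2.76 without replicate 2 (adjusted p = 0.000234). Left without replicate 2 or 3 of the 0 hr group, the 6 hr call was lost (adjusted p = 0.0554 and 0.0631). At 24 hr the difference from 0 hr was 3.53 ± 0.66 (adjusted p = 0.000426) and all 24 hr libraries were above all 0 hr libraries.

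Cxcl13 in WM repopulating cells was at 10.6, 2.45, 0.774 and 3.09 FPKM at 0 hr, at 21.8, 19.4, 21.5 and 14.003 at 6 hr and at 44.4, 32.2, 50.8 and 30.8 at 24 hr. The 3 times did not overlap, and the 24 hr libraries were highest. The median ratio was 7.37 at 6 hr (log2 difference 2.27 ± 0.61, adjusted p = 0.00467) and 13.8 at 24 hr (3.26 ± 0.61, adjusted p = 0.000461), and the ratio of means was 4.53 and 9.34. The step from 6 to 24 hr was 1.32 in control (adjusted p = 0.0894) and 0.996 in WM repopulating cells (adjusted p = 0.291), and the second passed when fitted on the 6 and 24 hr groups alone (adjusted p = 0.00400).

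Cxcl16, the transmembrane ligand, was the member with the highest level before LPS, and its relative change was small. In control microglia it was at 47.6, 40.5 and 42.4 FPKM at 0 hr, at 93.4, 424, 57.2, 186 and 76.2 at 6 hr and at 81.4, 94.1, 73.3 and 85.4 at 24 hr. All treated libraries were above the 0 hr libraries. The 6 hr median was 2.20 times that of 0 hr (log2 difference 1.52 ± 0.36, adjusted p = 0.00158), or 1.09 in log2 without replicate 2 (adjusted p = 0.000519), and the other 4 libraries averaged 103 ± 56.9 FPKM (SD). At 24 hr the median was 1.96 times, with a log2 difference of 0.92 that did not pass (adjusted p = 0.0878). It passed without replicate 2 (adjusted p = 0.00464) and when fitted on only the groups compared (adjusted p = 0.00254).

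Cxcl16 in WM repopulating cells was at 69.3, 82.7, 69.0 and 74.5 FPKM at 0 hr, at 117, 111, 114 and 106 at 6 hr and at 127, 158, 121 and 116 at 24 hr. The treated libraries lay above those of 0 hr with little spread within a time. Neither difference passed when all groups shared 1 spread, at 0.60 for 6 hr (adjusted p = 0.189) and 0.81 for 24 hr (adjusted p = 0.115). Both passed without replicate 2 of control microglia at 6 hr (adjusted p = 0.0270 and 0.00780), where the shared spread no longer holds its value of 424. Fitted on only the groups compared, both passed as well (adjusted p = 0.000317 and 0.000625). Zmynd15, on the opposite strand with 552 exonic bases in common, was at 0.726 to 1.502 FPKM in control microglia at 0 hr and at 2.002 to 11.7 at 6 hr, and no strand setting for the counting is given in the sources used here, so whether reads in the shared bases were told apart is not known.

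Cxcr4, the only receptor of the set, was at 0.160 to 1.70 FPKM over the 24 libraries. In control microglia it was at 0.656, 0.160 and 0.601 FPKM at 0 hr, at 1.09, 1.295, 1.43, 0.999 and 0.737 at 6 hr and at 0.5258, 0.928, 0.778 and 0.903 at 24 hr. The 6 hr libraries were all above those of 0 hr, and the 24 hr libraries overlapped both. The 6 hr difference was 0.53 ± 0.20 (adjusted p = 0.0351), and it did not pass without replicate 2 of the 6 hr group (adjusted p = 0.0662) or of the 0 hr group (adjusted p = 0.209), or with quantile normalization (adjusted p = 0.0969).

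In WM repopulating cells Cxcr4 was at 0.598, 0.524, 0.921 and 0.283 FPKM at 0 hr, at 1.70, 1.11, 0.609 and 1.33 at 6 hr and at 0.266, 0.884, 0.258 and 0.464 at 24 hr. All 3 times overlapped. The 6 hr difference was 0.46 ± 0.19 (adjusted p = 0.0621). It passed with no expression limit (adjusted p = 0.0475), with no trend (0.0453), and without replicate 3 of the WM 0 hr (0.0380) or WM 6 hr group (0.0225). The fall from 6 to 24 hr was -0.57 ± 0.19 (adjusted p = 0.0451), or -1.23 with a pseudocount of 0.1 (adjusted p = 0.0579). Its adjusted p was 0.142 without replicate 1 of the WM 6 hr group. That library had the highest Cxcr4 level and the high neutrophil and monocyte marker sums given above. Cxcl12, the ligand of CXCR4, was at 0 to 0.480 FPKM in the same libraries; it is named for its role, outside the rule for named genes.

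At a given time after LPS, no member passed between WM repopulating cells and control microglia. The share of genes called was 1.21% at 0 hr, 0.323% at 6 hr and 3.97% at 24 hr. Cxcl16 and Cxcl10 were higher without overlap in WM repopulating cells at 0 hr, as were 7.61% of genes, and Cxcl16 and Cxcl13 at 24 hr, as were 5.76%. For Cxcl16 the WM median was 1.69 times the control median at 0 hr (log2 difference 0.75, 95% interval -0.04 to 1.53, adjusted p = 0.447) and 1.49 times at 24 hr (0.63, -0.09 to 1.36, adjusted p = 0.361). Fitted on the groups compared alone, these differences passed (adjusted p = 0.00910 and 0.0489), and without replicate 2 of control microglia at 6 hr they did not (adjusted p = 0.106 and 0.0813). For Cxcl10 the 0 hr ratio was 2.68 (log2 difference 1.14, -0.22 to 2.497, adjusted p = 0.519), and for Cxcl13 the 24 hr ratio was 1.70 (0.73, adjusted p = 0.581). At 0 hr Cxcl13 had a log2 difference of 0.995 (-0.36 to 2.35, adjusted p = 0.592), with libraries that overlapped. Beside the 0 hr differences, marker sums of other cell types separated the origins in both directions, with B cells (3 of 4 genes listed) at 46.6 to 56.7 FPKM in control microglia and 9.66 to 19.5 in WM repopulating cells, T and NK cells (6 of 6) at 12.53 to 33.0 and 40.03 to 69.9, choroid plexus (4 of 4) at 73.9 to 217 and 279.8 to 715, endothelium (5 of 7) at 8.55 to 12.9 and 3.03 to 5.52, and astrocytes (6 of 6) at 55.6 to 61.6 and 37.5 to 52.2. At 24 hr, beside Cxcl16 and Cxcl13, the sums lower without overlap in WM repopulating cells were those of B cells, at 26.8 to 35.5 in control and 6.38 to 9.01, border macrophages (8 of 8), at 64.1 to 82.8 and 22.1 to 45.4, endothelium, at 7.74 to 12.8 and 1.81 to 7.33, and choroid plexus, at 35.3 to 51.8 and 10.54 to 32.0. The part of these markers in the differences at either time was not tested.

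At 6 hr each of the 7 members overlapped between the origins, where 2.11% of genes were higher and 1.66% lower without overlap in WM repopulating cells. Cxcl2 had a difference of -0.83 (95% interval -1.55 to -0.11, adjusted p = 0.443) and Cxcl1 of -0.91 (-1.81 to -0.02, adjusted p = 0.527), and without replicate 2 of control microglia they were -0.45 for Cxcl2 and -0.44 for Cxcl1. Cxcl13 had the largest difference, at 1.05 (-0.14 to 2.25, adjusted p = 0.612), and it was 0.50 without that replicate 2. For Cxcl10 and Cxcl16 the sign of the 6 hr difference depended on that library, at -0.51 and -0.18 with it and at 0.23 and 0.26 without it.

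**Figure D3:**
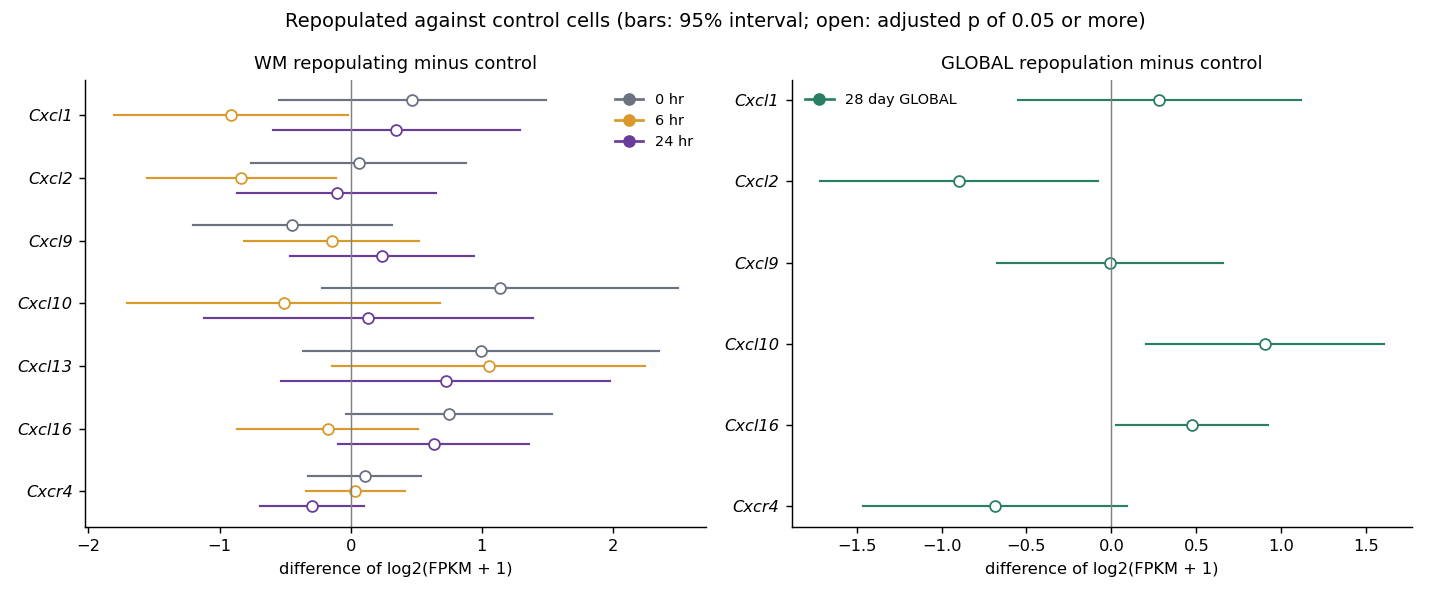
Difference of log2(FPKM + 1) for each member between repopulated and control cells, for WM repopulating cells at 0, 6 and 24 hr after LPS and for GLOBAL repopulation. Points are limma estimates and bars 95% intervals, and all are open because no adjusted p was under 0.05. The estimates at 0, 6 and 24 hr are 0.995, 1.05 and 0.73 for Cxcl13 and 0.75, -0.18 and 0.63 for Cxcl16, and each of these intervals includes 0.

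The LPS response itself was compared between origins as an interaction. No member passed for the 6 hr response, the 24 hr response or the change from 6 to 24 hr, where 0.0237%, 0.0867% and 0.158% of genes were called, or 3, 11 and 20 genes, and 0 to 3, 6 to 23 and 10 to 28 with 1 library of the groups compared left out. Without replicate 2 of control microglia at 6 hr the second count was 30. The smallest adjusted p over the 7 members was 0.692, 0.729 and 0.540 in turn. For Cxcl10 the 6 hr response was smaller in WM repopulating cells (difference of log2 differences -1.65 ± 0.87 SE, adjusted p = 0.709), and less so (-0.91, adjusted p = 0.822) without replicate 2 of control microglia. These tests do not show that the origins respond alike.

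Other genes of the pathway were counted over fixed lists, to be read against all genes tested, of which 21.4% rose and 21.1% fell by 6 hr in control and 19.3% and 19.5% in WM repopulating cells. At 24 hr 12.1% rose and 9.23% fell in control, and 10.5% and 8.29% in WM repopulating cells. Of 9 other CXC ligands, 5 were tested, and by 6 hr 1 rose and 1 fell in each origin. Cxcl11, the third ligand of CXCR3, rose by 1.69 in control (adjusted p = 0.00562) and 1.76 in WM repopulating cells, and Pf4, platelet factor 4, had differences of -2.60 (adjusted p = 0.000396) and -2.25. None was called at 24 hr. The list median at 6 hr was -0.13 in control and 0.38 in WM repopulating cells, against 0.01 and -0.00468 over all genes.

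Of the 9 other CXC receptors and scavengers, 4 were tested. Cxcr3 and Cxcr6, the receptors of CXCL9 and CXCL10 and of CXCL16, were lower at 6 hr in control microglia (-1.73, adjusted p = 0.000806, and -0.80, adjusted p = 0.0126) and in WM repopulating cells (-1.89 and -0.95). Cxcr3 was at 0.903 to 6.57 FPKM in control microglia at 0 hr and at 0 to 0.805 at 6 hr, and at 5.03 to 8.86 and 0.399 to 1.63 in WM repopulating cells. Both stayed lower at 24 hr. Cxcr2, the neutrophil receptor of CXCL1 and CXCL2, was higher at 24 hr in control (2.26, adjusted p = 0.000686) and WM repopulating cells (1.45, adjusted p = 0.0146), beside the neutrophil marker sums given above, whose part was not tested.

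Of 14 tested ligands of the CC, CX3C and XC families, 8 rose and 3 fell by 6 hr in control and 7 rose and 1 fell in WM repopulating cells, and at 24 hr 6 rose in each, with 1 falling in control and 2 in WM repopulating cells. Ccl5, a T cell attractant, had the largest 6 hr difference (5.52 and 3.89), and Ccl12 was 3.24 and 3.25 higher at 24 hr. Of 9 receptors of these families, 2 rose and 1 fell at 6 hr in control and 2 rose and 2 fell in WM repopulating cells, and Cx3cr1, the microglial fractalkine receptor, had differences of -1.59 and -1.66. The list medians for the ligands at 6 hr were 1.07 and 0.93, against 0.01 in control and -0.00468 in WM repopulating cells over all genes.

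Of 15 tested genes of interferon signalling, 6 rose and 2 fell by 6 hr in control, and 7 rose and 3 fell in WM repopulating cells, with list medians of 0.38 and 0.44. Irf7, a transcription factor induced by type I interferon, was 5.04 higher in control and 4.34 in WM repopulating cells, and was still 2.92 and 2.39 higher at 24 hr. Stat2, of the complex that binds the response element, was 2.10 higher in control at 6 hr. Ifng, encoding interferon gamma, rose in WM repopulating cells (2.31, adjusted p = 0.000245).

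Of 24 tested genes of LPS and NF-kB signalling, 10 rose and 3 fell by 6 hr in control and 6 rose and 6 fell in WM repopulating cells, with 2 and 7 higher and 2 and 2 lower at 24 hr. The list medians at 6 hr were 0.48 and 0.05, and in WM repopulating cells the shares that rose and fell were near those of all genes. Il1b was 4.95 and 3.61 higher at 6 hr, Cd14, the LPS co-receptor, 2.19 and 1.22, and Ly96, the MD-2 partner of TLR4, was lower in both (-1.03 and -1.03). Among 9 tested genes of ligand processing and CXCR4 partners, 2 rose and 2 fell by 6 hr in each origin, shares near those of all genes. Hif1a and Mif rose in both origins, Mif encoding an alternative ligand of CXCR4, while Cd74 and Mmp9 were lower. Adam10 and Adam17, the sheddases of CXCL16, were not called at 6 or 24 hr.

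The genes whose log2(FPKM + 1) over the 24 LPS libraries was most like each member are given as a description, with Pearson's r, since the libraries share their groups, depth and spread. Cxcl10 was most like Oasl1 (0.963), Ehd1 (0.963) and Ccl5 (0.962). Cxcl16 was most like Tlr2 (0.9497), Nfkbia (0.942) and Bcl2a1a (0.908), and Cxcl2 like Il1b (0.924), Ifitm1 (0.915) and Gbp7 (0.8998). Cxcl9 was most like Olfm1 (0.913), F7 (0.910) and Aldh1b1 (0.910), and Cxcl13 like Sdc3 (0.885), Atp8a1 (0.863) and AB124611 (0.863). For the low genes, r was at most 0.869 (Cxcl1 with Lcp2) and 0.864 (Cxcr4 with Sgms2). No member was among the 3 genes most like another member.

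In GLOBAL repopulation, where PLX3397 was given for 7 day, none of the 6 listed members passed, as for 0% of the 16651 genes tested by limma, while 3 of 6 members and 1504 genes had an unadjusted p under 0.05. Depth was 2206171 to 5373289 reads. Cxcl10 was at 5.35, 4.53, 2.07 and 8.23 FPKM in control and at 10.1, 10.8 and 7.91 after repopulation (log2 difference 0.91 ± 0.32, adjusted p = 0.469). The repopulation libraries overlapped the highest control library alone. Cxcl16 was at 27.8, 43.0, 39.7 and 35.2 in control and at 37.4, 54.4 and 62.7 after repopulation (0.47, adjusted p = 0.536).

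Cxcl2 had the opposite sign, at 15.5, 19.7, 15.8 and 5.70 FPKM in control and at 4.09, 9.62 and 6.85 after repopulation (-0.90, adjusted p = 0.522). Cxcr4 was at 3.57, 0.750, 3.56 and 2.38 in control and at 1.63, 0.513 and 1.24 after repopulation (-0.68, adjusted p = 0.588). The neutrophil marker sum was 2160 to 23182 in control and 1285 to 4668 after repopulation, and the monocyte sum 174 to 957 and 102 to 325, with overlap in both. Without overlap, border macrophages were at 34.5 to 57.6 and 20.3 to 32.7, B cells at 16.4 to 33.4 and 12.9 to 14.8, and astrocytes at 30.2 to 32.0 and 24.1 to 28.6. The pan-myeloid sum was higher after repopulation, at 4779 to 5425 and 5448 to 6051. The part of these markers in the member values was not tested. Cxcl1, at 1 to 8 reads, and Cxcl9, at 4 to 21 reads, had adjusted p of 0.839 and 0.996.

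**Figure D4:**
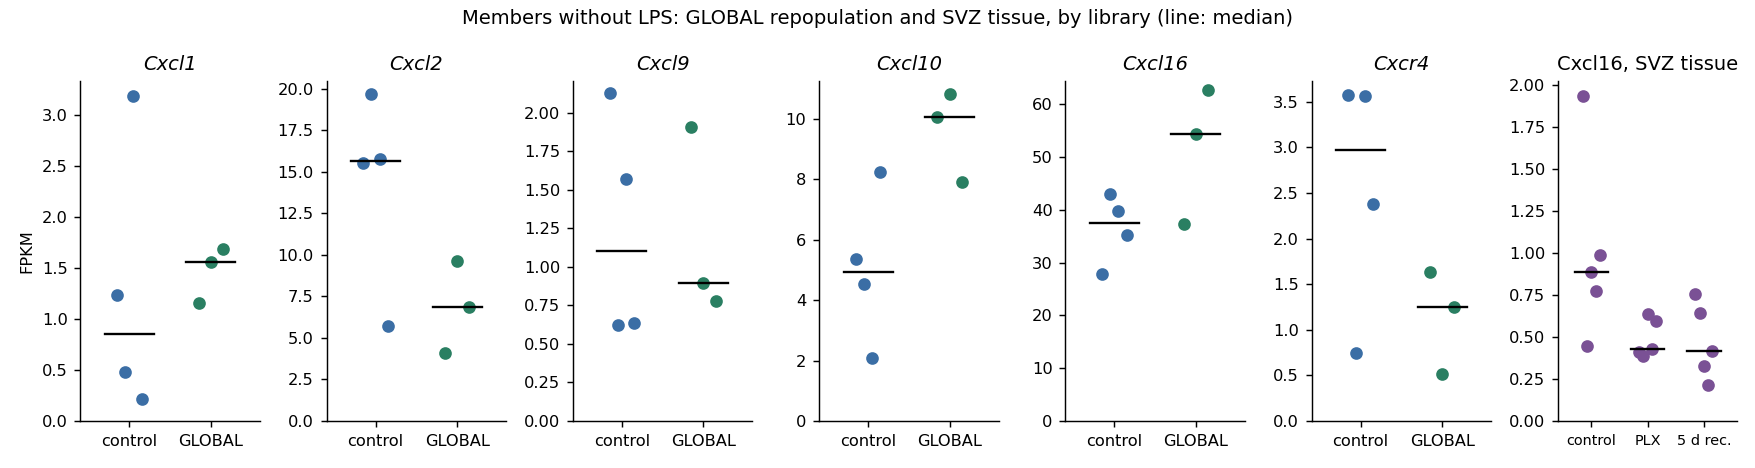
FPKM of the 6 listed members in sorted cells of GLOBAL control (4 libraries) and GLOBAL repopulation (3), and of Cxcl16 in SVZ tissue of control mice, after 14 day of PLX3397 (PLX) and after 5 day of recovery (5 d rec.), 5 libraries each. Points are libraries and lines are medians. In SVZ tissue Cxcl16 is at or below 1.94 FPKM throughout.

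In SVZ tissue Cxcl16 was at 1.94, 0.447, 0.886, 0.775 and 0.987 FPKM in control mice, at 0.409, 0.385, 0.635, 0.427 and 0.593 at the end of PLX3397 and at 0.759, 0.645, 0.328, 0.211 and 0.414 after 5 day of recovery. These are 5 to 23 reads, and 1 of 15 libraries reached the expression limit of 1 FPKM, so the gene was not tested with the rest. Fitted without the limit, the differences from control were -0.39 at the end of PLX3397 (adjusted p = 0.5257) and -0.42 after recovery (adjusted p = 0.199). In the main fit, which holds only the genes over the limit and so not Cxcl16, 1.26% and 1.27% of genes were called. The summed level of the microglia markers was 159 to 213 FPKM in control, 13.1 to 16.97 at the end of PLX3397 and 19.5 to 26.6 after recovery. Those sums were lower in both PLX3397 groups, and their part in the Cxcl16 values was not tested. Replicate 1 of the control mice, the library with the highest Cxcl16, had a choroid plexus sum (4 of 4 markers) of 21303 FPKM, against 23.3 to 125 in the other 4 control libraries and 14.05 to 43.2 in the other groups. Without that library, an alternative chosen after the data were seen, the differences from control were -0.24 (adjusted p = 0.811) and -0.27 (adjusted p = 0.314).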

How the data were processed

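RNA-seq was made from CD11b+CD45int cells and SVZ tissue, 46 libraries in 3 tables. The authors aligned reads with STAR to mm10, counted them with featureCounts and deposited FPKM values (named RPKM in their methods), with edgeR and limma among their tools. Library preparation is described as Smart-seq2 and Nextera in the methods and as a commercial service in the labels, and neither states a strand setting. No per-sample column was left unused, and no 2 libraries had identical values. Groups and replicates came from the sample titles. The study's methods count n in mice, the labels do not tie each library to a mouse, and p-values measure the spread between these libraries.

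From the deposited FPKM, genes that reached 1 FPKM in 3 or more libraries were tested on log2(FPKM + 1) with limma 3.58.1 (eBayes with trend) in R 4.3.3, all groups of a table in 1 fit, 2-sided, with Benjamini-Hochberg adjustment over all tested genes and a threshold of 0.05. A fold change on this scale understates the change of low genes. Interactions compare the LPS response of the origins. The tables were normalized separately and tested separately. Genes tested were 12684 (LPS), 14151 (SVZ) and 16651 (GLOBAL). Another 25 SVZ symbols had been turned into dates and were restored. Library depth was recovered from the steps between low FPKM values in genes of 1 annotated transcript. The test was checked on simulated data with known changes. Python 3.11.15 with pandas 2.3.3 and matplotlib 3.10.9 made the summaries and figures.

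The members and the gene lists were chosen with earlier results of these data known. Named genes are the 7 members, up to 2 called genes with the highest and 2 with the lowest fold change per list and comparison, and the 3 genes most correlated with each member. Genes named for replicate 2 of control microglia at 6 hr, strand neighbours, Cxcl12, Adam10, Adam17 and cell type markers lie outside this rule and were named after their values were seen. Alternatives were a pseudocount of 0.1, no expression limit, no trend, quantile normalization, the replicate number as a block, only the groups compared, and leaving out each library.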

Additional observations from a re-analysis of the deposited data

Results flagged for a closer look

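A library stood apart from the rest of its group in 4 of the 44 groups of member values tested by Dixon's criterion. For normally distributed values chance alone would give this in about 1 of 20 groups. The criterion was taken on FPKM, not on the log2 scale of the tests, and FPKM values are skewed, so that rate need not hold here. Replicate 2 of control microglia at 6 hr after LPS was highest in 3 of them, with Cxcl1 at 10.99 FPKM (others 0.602 to 2.34), Cxcl2 at 191 (others 41.6 to 55.2) and Cxcl10 at 2412 (others 69.7 to 326). Replicate 3 of control microglia at 24 hr was lowest for Cxcl10, at 42.2 FPKM (others 59.8 to 60.2). Cxcl16 was also highest in replicate 2, at 424 FPKM against 57.2 to 186, without passing that criterion.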

How the results depend on the processing

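Over 1076 results of single members under alternatives, 988 kept their sign and their side of the threshold, 24 newly passed, 38 no longer passed and 26 changed sign; 16 of the 22 member calls held in every alternative run. Fitted on only the groups compared, Cxcl1, Cxcl13 and Cxcr4 lost their 6 hr calls in control microglia. Cxcl16 newly passed at 24 hr in control microglia, at 6 and 24 hr in WM repopulating cells, and in WM against control at 0 and 24 hr. Cxcl1 newly passed at 24 hr in WM repopulating cells. From 6 to 24 hr there, Cxcl1, Cxcl2 and Cxcl13 newly passed as higher, Cxcl9 and Cxcl10 stayed lower and Cxcr4 was lost. Leaving out 1 library of the groups compared, members called ranged from 5 to 7 (control 6 hr), from 2 to 3 (control 6 to 24 hr), from 4 to 5 (WM 6 hr), from 2 to 3 (WM 24 hr) and from 1 to 2 (WM 6 to 24 hr), and stayed at 3 (control 24 hr). Over all genes the same runs called 4581 to 5507, 3126 to 3879, 4211 to 4540, 1882 to 2051, 1400 to 1838 and 1924 to 2483 in turn. Without replicate 2 of control microglia at 6 hr, which enters the shared spread, Cxcl1 and Cxcl16 newly passed at 24 hr in both origins. Cxcl16 newly passed at 6 hr in WM repopulating cells. From 6 to 24 hr there, Cxcl1 and Cxcl2 newly passed as higher, beside the lower Cxcl9, Cxcl10 and Cxcr4. The WM count from 6 to 24 hr was 1 without replicate 1 or 2 at 6 hr or without replicate 1, 3 or 4 at 24 hr. Cxcr4 in control microglia at 6 hr was also lost without replicate 1 or 3 of that group (adjusted p = 0.0509 and 0.0699), and from 6 to 24 hr in control microglia Cxcl13 newly passed without replicate 1 (0.0434) and Cxcl16 without replicate 3 (0.0317) of the 6 hr group. The cause was not tested.

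Results that did not pass and changed sign were as follows. With the replicate block, Cxcr4 in WM against control at 6 hr was -0.031. For Cxcl9 in GLOBAL repopulation the value was 0.022 with a pseudocount of 0.1 and 0.12 with quantile normalization. With 1 library left out, values ranged from -0.64 to 0.12 for Cxcl9 (control 24 against 0 hr), from -0.47 to 0.25 for Cxcl1 and -0.051 to 0.52 for Cxcl2 (control 24 against 6 hr), from -0.10 to 0.43 for Cxcl1 (WM 6 hr), and from -0.14 to 0.13 for Cxcl9 (GLOBAL). In WM against control they ranged from -0.18 to 0.21 (Cxcl2), -0.72 to 0.037 (Cxcl9) and -0.057 to 0.20 (Cxcr4) at 0 hr, from -0.35 to 0.022 (Cxcl9), -1.04 to 0.23 (Cxcl10), -0.46 to 0.26 (Cxcl16) and -0.073 to 0.18 (Cxcr4) at 6 hr, and from -0.37 to 0.081 (Cxcl2) and -4.7e-05 to 0.24 (Cxcl10) at 24 hr.

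Same-numbered samples correlated from -0.19 to 0.27 in the LPS table, with 7 of 55 pairs over 0.1, so the numbers do not pair the samples. With the replicate block no member call changed other than that of Cxcr4 from 6 to 24 hr in WM repopulating cells, which was lost (adjusted p = 0.0659). Over all genes, counts that moved over 1.5 times from the main values of 3 (difference of the 6 hr response), 11 (24 hr response), 20 (6 to 24 hr change), 41 (WM against control at 6 hr) and 503 (24 hr) were 1, 6 and 9 with a pseudocount of 0.1 for the first 3, 0 and 6 with the block for the first 2, and 0, 16 and 263 on only the groups compared for the first and last 2. With 1 library left out, WM against control called 64 to 103 genes at 0 hr (154 with all), 23 to 75 at 6 hr and 291 to 438 at 24 hr, and SVZ recovery 143 to 330 against control (180 with all) and 23 to 86 against PLX3397, both highest without replicate 3 of the recovery group. The GLOBAL count went from 0 to 55 with the block, where same-numbered samples correlated from 0.056 to 0.14 (2 of 3 pairs over 0.1) and others from -0.14 to 0.091, and the count of SVZ recovery against PLX3397 from 46 to 23 on only the groups compared. Depth limits Cxcl1 and Cxcr4 in the LPS table, Cxcl1, Cxcl9 and Cxcr4 (3 to 22 reads) in the GLOBAL table and Cxcl16 in the SVZ table, with few reads per library.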
